A study of Mus musculus with 10 samples.

Results

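The genes described here encode the ligands, receptors, Smad proteins, Id targets and antagonists of the bone morphogenetic protein (BMP) and transforming growth factor beta (TGF-beta) pathways in mouse dorsal skin. They were chosen by symbol, with earlier results of these data known. These are the numbered Bmp, Gdf, Tgfb and Smad genes, the Bmpr and Tgfbr receptors, Inhba to Inhbe, Id1 to Id4, and Nog, Bambi, Grem1, Chrd and Fst. The rule took 55 of the 24543 entries of the gene table. They comprise 10 BMP ligands, 10 growth differentiation factors (GDF), 3 TGF-beta ligands, 4 activin beta subunits, 7 receptors, 5 antagonists, 5 receptor-regulated Smads, 3 common or inhibitory Smads, 4 Id genes and 4 genes that only share the letters of the symbol. Of the 55 genes, 41 reached 1 RPKM (reads per kilobase of gene and per fixed number of alignments, a level per gene length) in at least 2 of the 10 libraries and entered the tests.

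RNA sequencing was done on total RNA from skin of C57BL/6 mice with an intact Dlx4 gene (Dlx4-WT, here WT) or an ablated one (Dlx4-KO, here KO). Dlx4 is a distal-less homeobox transcription factor, and the series asked which transcripts change in skin without it. Skin of postnatal day 1 (P1) came from 3 WT and 3 KO mice, and skin of postnatal day 60 (P60) from 2 WT and 2 KO mice, as far as the labels number them. The sources used here do not state how the allele was made, in which cells it is ablated, or the sex of the mice. The labels do not say whether replicates were separate litters, so the p-values below measure the spread between these samples.

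BMP and TGF-beta proteins are secreted dimers that bind pairs of type I and type II receptor kinases on the cell surface. BMP receptors (Bmpr1a and Bmpr1b with Bmpr2) phosphorylate Smad1, Smad5 and Smad9, whereas TGF-beta and activin receptors (Tgfbr1 with Tgfbr2, and activin receptors) phosphorylate Smad2 and Smad3. Both kinds of Smad join Smad4 and enter the nucleus, Smad6 and Smad7 block the signal, and the Id genes, inhibitors of basic helix-loop-helix transcription factors, are direct targets of BMP signalling. In skin, BMP signals hold hair follicle stem cells at rest and are needed for hair shaft differentiation, noggin in the dermis allows hair follicles to form, and TGF-beta promotes matrix production by dermal fibroblasts and restrains growth of keratinocytes.

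Dlx4 itself stood at 2.93, 3.78 and 3.42 RPKM in the WT libraries at P1 and at 1.77, 2.45 and 1.62 RPKM in the KO libraries, so the groups did not overlap, and the libraries labelled KO at P1 still held Dlx4 RNA. Whether these reads come from an undeleted part of the gene is not known here. At P60 it was at most 0.125 RPKM in every library of either genotype, so that age gives no check of the labels. The authors listed 36131011 to 52558983 alignments per library at P1 and 49936026 to 74916106 at P60, and the P60 libraries came from another sequencing run. The Y-linked gene Eif2s3y was at 22.3 to 26.9 RPKM in all 4 P60 libraries and at 35.0 RPKM in KO P1 replicate 2, and at most 0.0164 RPKM in the other 5 libraries, where Xist reached 29.2 to 39.8 RPKM. Age and sequencing run therefore cannot be told apart as sources of a difference between P1 and P60, and KO P1 replicate 2 is the only library that separates age from sex-linked RNA. Summed markers of basal epidermis (Krt5, Krt14, Krt15, Col17a1 and Itgb4) reached 2210 to 2791 RPKM at P1 and 3545 to 4569 RPKM at P60, so markers of epidermis were present in every library.

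In newborn skin the pathway was expressed from ligand to target. Bmp7 and Bmp4 were the leading BMP transcripts, Tgfb1 and Tgfb3 the leading TGF-beta transcripts, and Tgfbr2 and Bmpr1a the leading receptors. Smad4 and Smad1 led the Smads, and Id3 and Id1 had the highest levels of the signalling genes, at 49.8 to 58.6 RPKM and 49.7 to 56.5 RPKM over the 6 P1 libraries. Follistatin (Fst), which binds activins, was the most abundant antagonist at 19.8 to 25.9 RPKM. The 14 genes that did not enter the tests were Bmp5, Bmp8b, Bmp10, Bmp15, Gdf2, Gdf3, Gdf5, Gdf6, Gdf7, Gdf9, Gdf15, Inhbc, Inhbe and Smad9. Of these, Bmp10 and Inhbc were listed at 0 in all 10 libraries, and none exceeded 0.957 RPKM in any library, the value of Gdf15 in KO P60 replicate 1. Smad9, another Smad of the BMP branch, stayed at 0.200 to 0.371 RPKM in all 10 libraries, beside 14.1 to 18.0 RPKM of Smad1 and Smad5 at P1. Bmp8a, Inhba and Bmpr1b passed the filter but were under 1 RPKM in every P60 library.

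**Figure D1:**
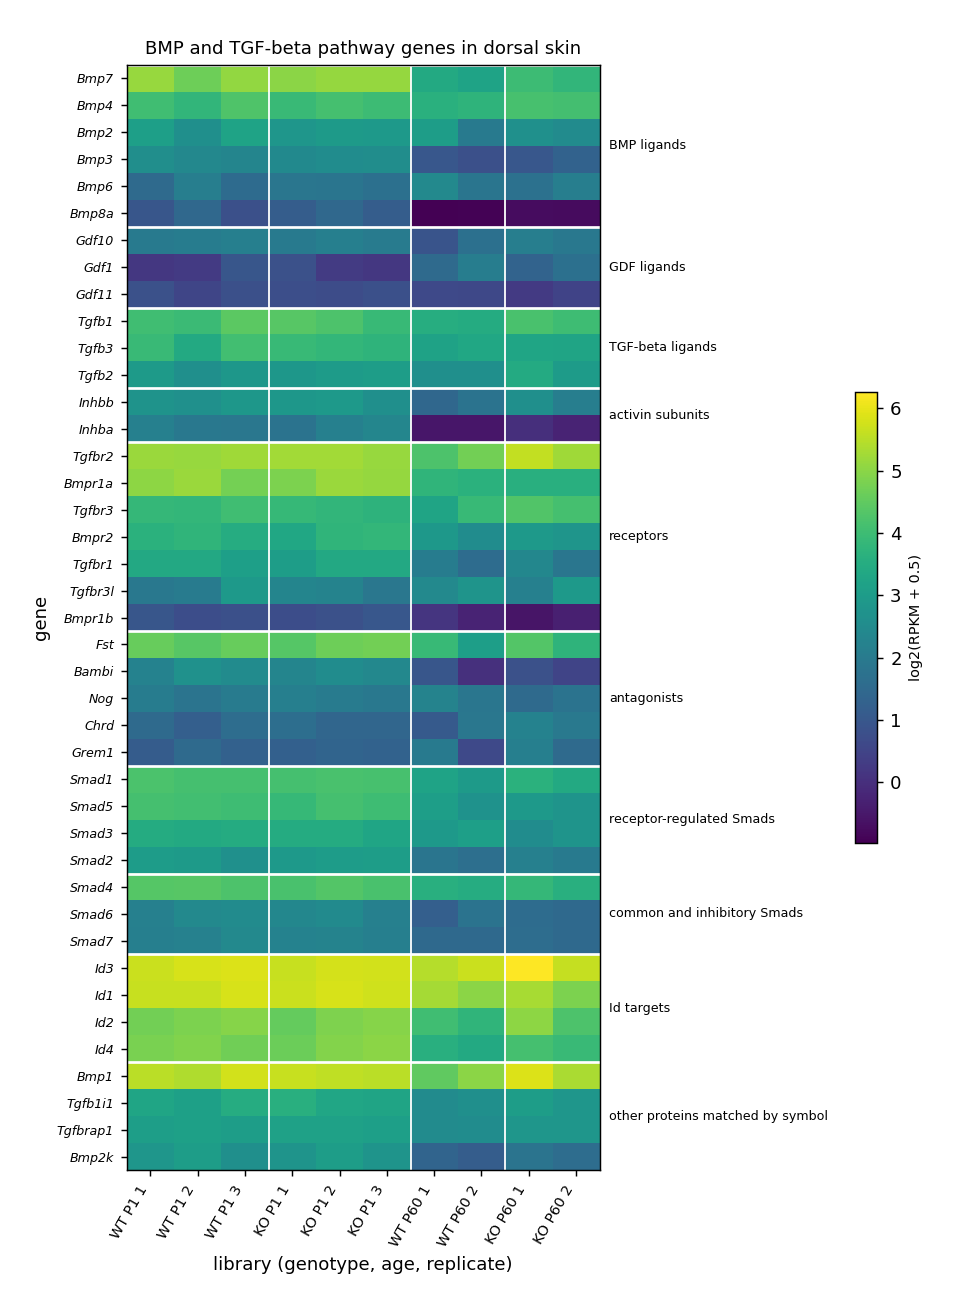
Levels of the 41 tested BMP and TGF-beta pathway genes, one row per gene and one column per library, as log2(RPKM + 0.5) with the colour scale at the right. Genes are grouped by role and ordered by mean level within a role, and white vertical lines part the 4 groups. Within P1 the WT and KO columns look alike, and most rows are darker at P60, with Inhba and Bmp8a among the darkest.

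The promoters of 4 genes are shown because their genes carry the differences described below: Tgfbr2, Tgfb2 and Inhbb encode receptor and ligand chains called higher in KO than in WT skin at P60, and Inhba had the largest log2(RPKM + 0.5) fall between P1 and P60. Each sequence is the RefSeq window on build GRCm38.p6 from 250 bases before to 50 bases after the annotated start, 5′ to 3′ on the strand of the gene. Capitals mark the TATA box (TATAAA), the CCAAT box (CCAAT), the GC box (GGGCGG), a GC-rich Smad motif (GGCGCC) and a palindromic Smad motif (GTCTAGAC), searched on both strands.

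Tgfbr2, chr9:116175314-116175613, minus strand: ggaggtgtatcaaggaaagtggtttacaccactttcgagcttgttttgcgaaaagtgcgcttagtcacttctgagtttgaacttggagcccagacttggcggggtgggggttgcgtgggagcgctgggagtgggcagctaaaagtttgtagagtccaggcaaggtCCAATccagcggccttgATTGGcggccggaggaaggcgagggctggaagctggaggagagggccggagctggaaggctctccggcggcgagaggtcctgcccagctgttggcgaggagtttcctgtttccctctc

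Tgfb2, chr1:186705940-186706239, minus strand: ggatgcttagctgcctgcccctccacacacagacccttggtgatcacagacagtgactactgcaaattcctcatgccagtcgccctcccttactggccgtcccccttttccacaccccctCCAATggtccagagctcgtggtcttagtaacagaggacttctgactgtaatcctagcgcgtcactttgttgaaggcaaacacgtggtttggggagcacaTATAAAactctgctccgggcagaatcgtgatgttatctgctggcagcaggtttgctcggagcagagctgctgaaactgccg

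Inhbb, chr1:119422199-119422498, minus strand: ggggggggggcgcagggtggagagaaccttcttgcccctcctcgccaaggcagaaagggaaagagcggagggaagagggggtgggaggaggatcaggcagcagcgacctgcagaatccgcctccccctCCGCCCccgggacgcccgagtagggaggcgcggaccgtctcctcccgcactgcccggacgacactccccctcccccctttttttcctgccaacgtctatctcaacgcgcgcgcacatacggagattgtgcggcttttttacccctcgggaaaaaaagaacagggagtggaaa

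Inhba, chr13:16011601-16011900, plus strand: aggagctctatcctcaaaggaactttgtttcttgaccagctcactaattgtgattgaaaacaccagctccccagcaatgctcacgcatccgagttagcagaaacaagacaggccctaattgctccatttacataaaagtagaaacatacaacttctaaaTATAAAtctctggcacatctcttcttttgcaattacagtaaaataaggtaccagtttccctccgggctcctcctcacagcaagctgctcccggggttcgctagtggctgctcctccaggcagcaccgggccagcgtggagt

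The Tgfbr2 window held CCAAT at -85 and its reverse complement at -68 from the start, and no TATAAA and no GGGCGG. The Tgfb2 window held TATAAA at -31 and CCAAT at -130. The Inhbb window held the reverse complement of the GC box at -122, and the Inhba window TATAAA at -91. Of the 6 genes called higher in KO skin at P60, 5 had a window, and 4 of these held CCAAT on either strand (Tgfbr2, Tgfb2, Id4 and Smad1) and Inhbb did not. Among 32851 RefSeq windows of the same length, 13.6% held TATAAA, 37.4% CCAAT, 35.7% GGGCGG, 11.9% GGCGCC and 0.213% GTCTAGAC. The 4 windows held 15 (Tgfbr2), 10 (Tgfb2), 23 (Inhbb) and 7 (Inhba) CpG dinucleotides, beside a median of 7 over all windows. A window was used for 37 of the 55 genes, after windows of genes on chromosome 18 (Bambi, Smad2, Smad4 and Smad7) had been left out.

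The comparison at P1 asked whether the pathway differed between the libraries labelled KO and WT in newborn skin, where Dlx4 RNA was lower in KO but not absent. No gene of the 41 passed the test, and WT and KO libraries overlapped for all 41. Bmp7, the most abundant BMP ligand, stood at 34.6, 25.1 and 33.7 RPKM in WT and 31.8, 33.9 and 34.4 RPKM in KO. Bmp4 stood at 15.8, 13.4 and 18.7 RPKM in WT and 14.9, 16.9 and 15.2 RPKM in KO. For both ligands every KO value lay inside the range of the WT values. Tgfbr2, the type II receptor of TGF-beta, stood at 35.9, 35.1 and 37.2 RPKM in WT and 37.4, 37.9 and 35.2 RPKM in KO. Smad1, a Smad of the BMP branch, stood at 18.0, 16.9 and 16.9 RPKM in WT and 17.1, 17.5 and 17.4 RPKM in KO, and the genotypes overlapped for both genes.

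With limma on log2(RPKM + 0.5) and Benjamini-Hochberg adjustment over all 14026 tested genes, 0 of 41 members were called higher and 0 lower, where 0.0% of all genes were called in either direction. KO libraries lay wholly above WT libraries for 2.08% of all genes at P1 and wholly below for 2.48%, and for none of the 41. None had an unadjusted p under 0.05, which 0.927% of all genes had. The log2 differences of KO minus WT ran from -0.14 (Tgfbr3l) to 0.19 (Bmp8a) with a median of 0.02. The median 95% interval reached 0.33 to either side. It ran from -0.12 to 0.21 for Tgfbrap1, the narrowest, and from -0.69 to 0.67 for Grem1, the widest, so the change that could be resolved differed between genes. The genes of smallest p were Tgfb2 at 0.16, Smad4 at -0.10, Smad2 at 0.12, Bmp8a at 0.19 and Bmp7 at 0.11, each with an adjusted p of 1.0 in limma. For Tgfb2 the interval of -0.14 to 0.46 still holds changes larger than the estimate.

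In adult skin 6 genes were higher in KO than in WT skin. They were the receptor Tgfbr2, the ligand Tgfb2, the activin beta B subunit Inhbb, the BMP-branch mediator Smad1, the Id family gene Id4, and Bmp1. The last is a metalloproteinase that cleaves procollagen and chordin and is not a BMP ligand. None was lower. Of all 14026 tested genes, 8.21% were called higher and 2.91% lower. The 6 pathway genes were 1.37-fold (Smad1) to 1.92-fold (Tgfbr2) higher by mean RPKM, and in each of them both KO libraries exceeded both WT libraries. Such separation was common: KO libraries lay wholly above WT libraries for 42.7% of all tested genes and wholly below for 18.8%. Separations named below are read against these shares. In bulk skin fewer cells of a type and less RNA per cell cannot be told apart.

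Tgfbr2 binds TGF-beta and then recruits and activates the type I receptor Tgfbr1. It stood at 18.4 and 26.0 RPKM in WT P60 skin and at 48.1 and 37.2 RPKM in KO P60 skin. The log2 difference was 0.94 (SE 0.16, adjusted p = 0.0278, limma). The WT values at P60 lay below all 6 P1 values of 35.1 to 37.9 RPKM. KO replicate 1 lay above them, and KO replicate 2 lay within their range. Its gene spans chr9:116084293-116175360 on the minus strand (GENCODE M21, GRCm38). Tgfbr1, its partner, stood at 3.66 and 2.51 RPKM in WT and 4.67 and 3.13 RPKM in KO and overlapped between genotypes, with a log2 difference of 0.29 (adjusted p = 0.374). Tgfbr3 (betaglycan), a co-receptor that presents TGF-beta to Tgfbr2, stood at 9.03 and 14.6 RPKM in WT and 19.3 and 16.9 RPKM in KO. Its log2 difference of 0.63 missed the threshold (adjusted p = 0.0587, limma), and the genotypes did not overlap. None of the BMP receptors was called, and the difference between the receptor groups was not tested: Bmpr1a differed by -0.10, Bmpr2 by 0.15 and Bmpr1b by -0.38 on the log2 scale, with adjusted p of 0.701, 0.608 and 0.177. Bmpr1b was under 0.6 RPKM in each P60 library.

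Among the TGF-beta ligands, Tgfb2 stood at 5.65 and 5.65 RPKM in WT and 10.5 and 7.47 RPKM in KO (log2 difference 0.61, SE 0.16, adjusted p = 0.0469, limma). Tgfb1 stood at 11.1 and 10.6 RPKM in WT and 17.8 and 15.7 RPKM in KO, with a log2 difference of 0.61 that missed the threshold (adjusted p = 0.0646). Tgfb3 stood at 8.57 and 9.67 RPKM in WT and 9.24 and 8.94 RPKM in KO, a log2 difference of -0.00 with a 95% interval of -0.42 to 0.42. For Tgfb1 and Tgfb2 the KO libraries lay wholly above the WT libraries, as for 42.7% of all tested genes, and for Tgfb3 the genotypes overlapped. The share of Tgfb3 in the summed RPKM of the 3 ligands, a ratio within a library that no scaling of the library alters, was 33.9% and 37.4% in WT and 24.6% and 27.9% in KO, beside 33.2% to 38.9% in the 6 P1 libraries. This share was computed after the values had been seen and was not tested.

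Inhbb encodes the beta subunit of activin B. It stood at 2.23 and 2.95 RPKM in WT and 5.66 and 3.82 RPKM in KO (log2 difference 0.75, SE 0.19, adjusted p = 0.0401, limma), beside 5.63 to 7.03 RPKM over the P1 libraries. Inhba, the beta subunit of activin A, stood at 0.193 and 0.191 RPKM in WT and 0.492 and 0.334 RPKM in KO. Both KO libraries exceeded both WT libraries, at levels under 1 RPKM, with a log2 difference of 0.40 that was not called (adjusted p = 0.202).

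No BMP ligand passed the test. Bmp7, which stood at 10.3 and 8.83 RPKM in WT and 15.2 and 13.3 RPKM in KO, came nearest with a log2 difference of 0.56 (adjusted p = 0.0511, limma). Bmp4 stood at 11.7 and 12.8 RPKM in WT and 17.4 and 16.5 RPKM in KO, with a log2 difference of 0.46 (adjusted p = 0.0681). For both ligands each KO library exceeded each WT library. Bmp2 differed by 0.06 with an interval of -0.59 to 0.72, because its WT values of 7.75 and 3.52 RPKM lay on either side of the KO values. Bmp6 differed by -0.22, Bmp3 by 0.26 and Bmp8a, at most 0.102 RPKM at this age, by 0.21, none of them called. Among the GDF ligands, Gdf10 (also known as Bmp3b) stood at 1.36 and 2.73 RPKM in WT and 3.85 and 3.30 RPKM in KO, with a log2 difference of 0.73 (adjusted p = 0.0579). Gdf11 differed by -0.25 and Gdf1 by -0.31, with adjusted p of 0.302 and 0.537.

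The secreted and membrane-bound antagonists gave no call either. Noggin (Nog), which sequesters BMPs, stood at 4.33 and 3.16 RPKM in WT and 2.36 and 2.95 RPKM in KO, below both WT libraries, with a log2 difference of -0.42 (adjusted p = 0.116). Chordin (Chrd), another BMP-binding protein and a substrate of Bmp1, stood at 1.61 and 3.21 RPKM in WT and 4.21 and 3.39 RPKM in KO, with a log2 difference of 0.61 (adjusted p = 0.122). The 2 BMP antagonists thus differed in opposite directions, neither past the threshold. Fst differed by 0.52, Grem1 by 0.53 and the pseudoreceptor Bambi by 0.17, with overlapping libraries in each case.

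Smad1 stood at 8.91 and 7.33 RPKM in WT and 12.03 and 10.2 RPKM in KO (log2 difference 0.43, SE 0.12, adjusted p = 0.0469, limma). Smad5, the other abundant BMP-branch Smad, differed by -0.04 with a 95% interval of -0.35 to 0.27. In the TGF-beta and activin branch, Smad2 differed by 0.33 (adjusted p = 0.135) and Smad3 by -0.36 (adjusted p = 0.084). Smad3 stood at 7.01 and 8.12 RPKM in WT and 5.30 and 6.33 RPKM in KO, so that the KO libraries lay below the WT libraries. After median-of-ratios scaling of the libraries its log2 difference was -0.51 with an adjusted p of 0.0334, the only gene of the 41 called lower under any setting. Smad4, Smad6 and Smad7 differed by 0.18, 0.03 and 0.06 on the log2 scale, and the intervals of the latter pair reached at most 0.46.

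Of the Id genes, Id4 stood at 11.6 and 10.1 RPKM in WT and 17.1 and 14.9 RPKM in KO (log2 difference 0.54, SE 0.14, adjusted p = 0.0449, limma). Id2 stood at 16.0 and 13.1 RPKM in WT and 31.9 and 18.3 RPKM in KO, a log2 difference of 0.72 that missed the threshold (adjusted p = 0.0718). Id1, at 38.4 and 31.4 RPKM in WT and 39.1 and 27.8 RPKM in KO, differed by -0.07 with an interval of -0.44 to 0.29. Only Id4 among the 4 Id genes was called, and differences between the Id genes were not tested. Id3, at 43.1 and 51.3 RPKM in WT and 76.2 and 49.2 RPKM in KO, overlapped between genotypes, with a log2 difference of 0.38 (adjusted p = 0.189). Among the genes that only share the letters, Bmp1 stood at 22.2 and 31.7 RPKM in WT and 58.1 and 40.1 RPKM in KO (log2 difference 0.85, SE 0.21, adjusted p = 0.0385, limma). Tgfbrap1, a receptor-associated trafficking protein, differed by 0.31 (adjusted p = 0.0534), Bmp2k, a kinase, by 0.44 and Tgfb1i1 (Hic-5), a focal adhesion protein, by 0.37.

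**Figure D2:**
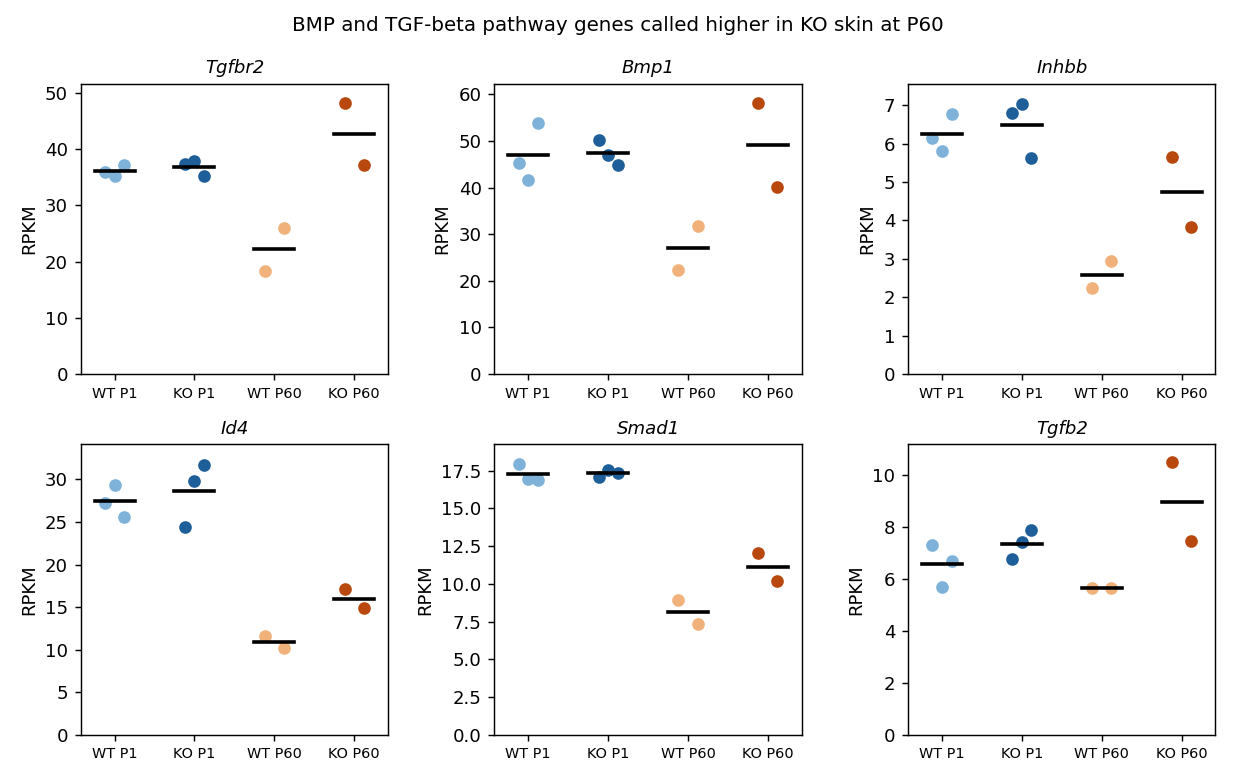
RPKM of the 6 pathway genes called higher in KO than WT skin at P60, with one point per library, a black bar at each group mean and each axis starting at 0. In all 6 panels both KO P60 points lie above both WT P60 points, the WT and KO points at P1 overlap, and KO P60 replicate 1, the left-hand KO point, is the higher of the pair.

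Over the 41 genes, 6 were called higher (8.21% of all tested genes were) and 0 lower (2.91% of all tested genes were). The median log2 difference was 0.31, beside 0.13 over all tested genes, and 27 of the 41 lay above that overall median and 14 below it. KO libraries lay wholly above WT libraries for 20 genes and wholly below for 5, where 42.7% and 18.8% of all genes did so. An unadjusted p under 0.05 was found for 17 genes that were higher and 2 that were lower, where 32.1% of all genes had one. Whether the members were called more often than other genes was not tested. After median-of-ratios scaling, which set the median of all genes near 0, 3.38% of all genes were called higher and 7.7% lower, and of the members 1 was called higher (Tgfbr2) and 1 lower (Smad3).

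**Figure D3:**
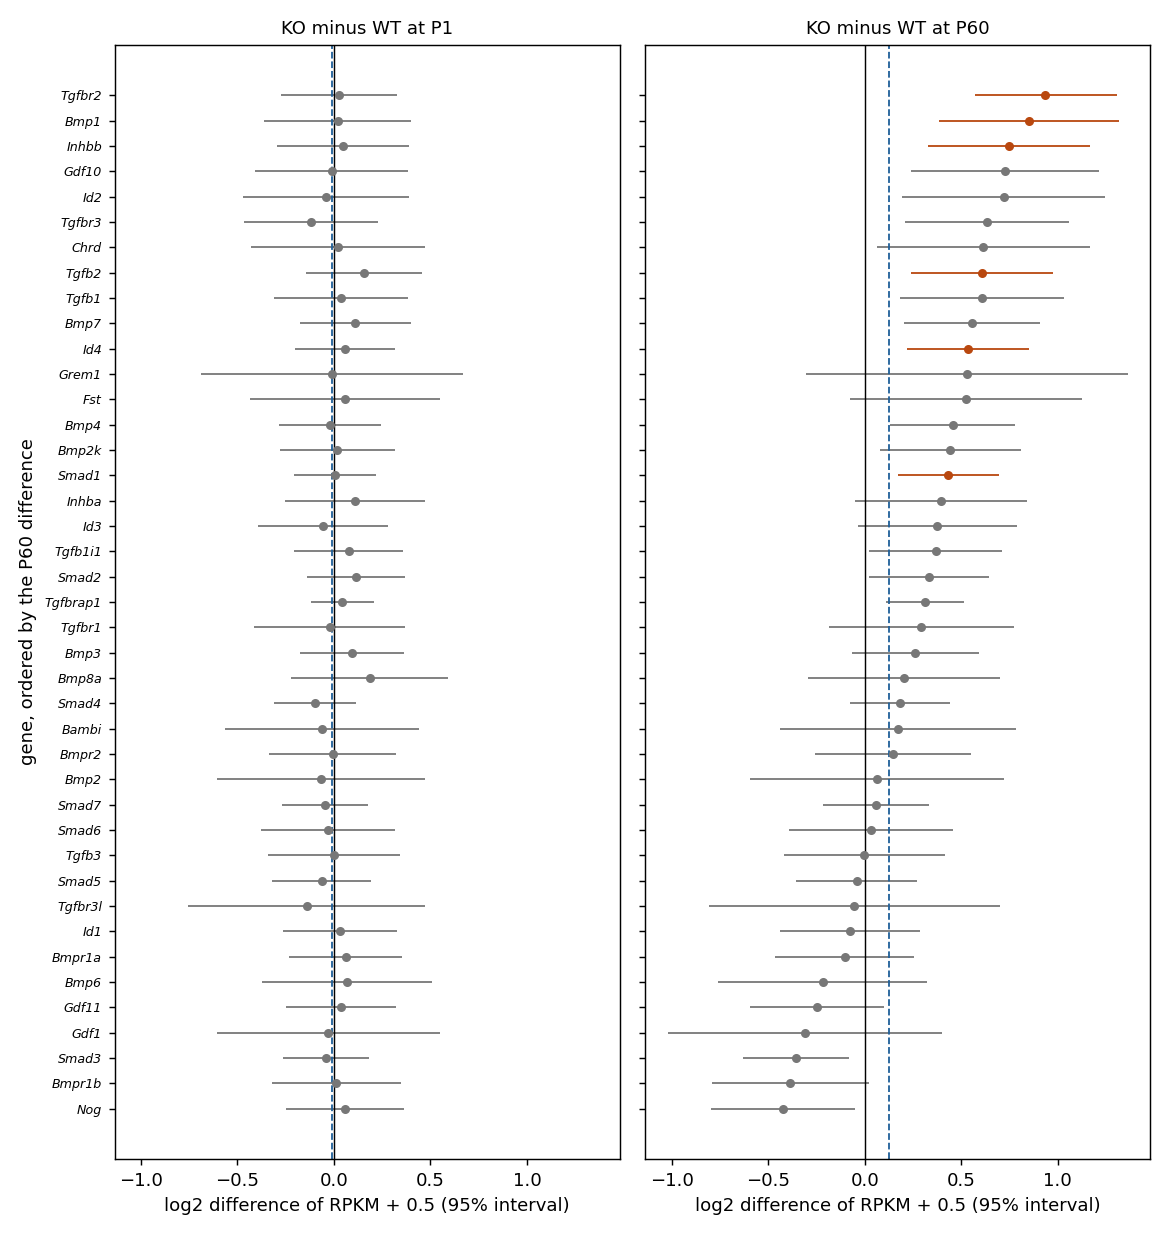
Log2 difference of KO minus WT for the 41 genes at P1 (left) and P60 (right), from limma on log2(RPKM + 0.5), ordered by the P60 value. Points are estimates, horizontal lines 95% intervals, orange marks an adjusted p under 0.05, the solid vertical line is 0 and the dashed line the median of all tested genes. At P1 all points lie between -0.14 and 0.19, and at P60 they spread from -0.42 (Nog) to 0.94 (Tgfbr2).

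The 6 calls at P60 rested on 2 libraries a group and on a spread estimated over all 10 libraries. The SEs and p-values at P60 therefore do not measure the P60 spread alone. For Tgfbr2 the SD was 1.06 (WT) and 1.44 (KO) RPKM at P1, and 5.35 and 7.77 RPKM at P60. For Id4 it was 1.90 and 3.77 RPKM at P1, and 1.03 and 1.61 RPKM at P60. Leaving out 1 library at a time gave 0 to 11 called members. No member was called when KO replicate 2 or 3 or WT replicate 1 was left out at P1, nor when replicate 1 of either genotype was left out at P60. There were 2 without KO P1 replicate 1, 5 without WT P1 replicate 2, 6 without WT P60 replicate 2, 8 without KO P60 replicate 2 and 11 without WT P1 replicate 3. Tgfbr2 kept its call in 5 of these 10 fits, with log2 differences of 0.69 to 1.18, Bmp1 and Inhbb in 4, Id4 and Tgfb2 in 3 and Smad1 in 2. In these fits the log2 difference of Smad1 ran from 0.30 to 0.57 and that of Tgfb2 from 0.37 to 0.84, so no direction turned. With quantile normalization, or with the P60 libraries fitted alone, 0 members were called. Quantile normalization called 0.135% of all tested genes higher and 0.257% lower at P60. The share for the P60 libraries alone is not given here.

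Markers of dermal fibroblasts and matrix moved with the same contrast. Counts of called markers are read against the 8.21% of all tested genes called higher and the 2.91% called lower. The summed RPKM of Col1a1, Col1a2, Col3a1, Pdgfra, Dcn and Lum was 4250 and 5270 in WT P60 skin and 23119 and 9561 in KO P60 skin, with KO P60 replicate 1 the highest, and 6 of 6 were called higher. At P1 that sum was 3722 to 4568 RPKM in both genotypes. Macrophage and dendritic cell markers summed to 35.1 and 69.0 RPKM in WT and 135.8 and 111.5 RPKM in KO at P60, and 4 of 5 were called higher. Skeletal muscle markers summed to 32296 and 36210 RPKM in WT and 13913 and 23474 RPKM in KO at P60, and 1 of 6 was called lower. Of T cell markers 3 of 4 were called higher, at 12.9 and 9.46 RPKM in WT and 20.7 and 17.2 RPKM in KO when summed. Of mast cell markers 2 of 3 were called higher, at 28.7 and 37.9 RPKM in WT and 106.02 and 57.6 RPKM in KO. Of sebaceous gland markers 1 of 4 was called higher. White adipocyte markers were not called, with 5 of 5 above 0 and a median log2 difference of 1.15. No gene of these lists was at 0 in all libraries. The part of these cell types in the P60 differences of the pathway genes was not tested.

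Pathway genes outside the symbol rule were read from lists chosen by textbook role, with earlier results of these data known. Their counts at P60 are read against the 8.21% of all tested genes called higher and the 2.91% called lower. Of 16 tested genes that store or activate latent TGF-beta in the matrix, 6 were higher and 1 lower in KO skin at P60, with a median log2 difference of 0.65. Fibrillin-1 (Fbn1), a microfibril protein that anchors latent TGF-beta complexes, stood at 5.80 and 12.3 RPKM in WT and 27.5 and 19.8 RPKM in KO (log2 difference 1.41, adjusted p = 0.0308, limma). Biglycan (Bgn), a proteoglycan that binds TGF-beta, stood at 81.5 and 79.0 RPKM in WT and 222.9 and 126.4 RPKM in KO (log2 difference 1.06, adjusted p = 0.0308). Itgb6, the integrin subunit that activates latent TGF-beta at epithelial cells, went the other way, at 4.06 and 4.08 RPKM in WT and 1.59 and 2.47 RPKM in KO (log2 difference -0.87, adjusted p = 0.0308). The list shares Dcn with the fibroblast markers, so the lists are not independent.

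Of 18 tested textbook targets of Smads, 5 were higher and 0 lower in KO skin at P60, with a median of 0.24. The shares over all tested genes were 8.21% and 2.91%, here and for the lists below. The 5 higher targets were the matrix genes Col1a1, Col3a1, Fn1, Postn and Tgfbi, of which Col1a1 and Col3a1 are also fibroblast markers above. Tgfbi stood at 149.5 and 149.5 RPKM in WT and 387.4 and 240.2 RPKM in KO (log2 difference 1.03, adjusted p = 0.0308, limma). The BMP targets Msx1 and Msx2 differed by -0.02 and 0.26 and were not called. Of 13 other secreted modulators 3 were higher: Fstl1, a follistatin-like protein (1.054), Twsg1, which binds BMP and chordin (0.46), and Sostdc1, a BMP and Wnt antagonist (0.54). Of 11 other receptors and co-receptors 1 was lower, the anti-Muellerian hormone receptor Amhr2 (-0.74, adjusted p = 0.038). None of 17 intracellular regulators and none of 3 other ligands was called, and at P1 none of these lists held a called gene.

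Whether the genotype effect differed between the ages was tested as an interaction. No pathway gene was called in either direction, as for all genes (0.0% higher and 0.0% lower), and 11 of the 41 had an unadjusted p under 0.05, where 22.9% of all genes did. All 11 differences were positive, meaning a higher KO minus WT value at P60 than at P1. The median over all tested genes was also positive, at 0.14, and was -0.01 under median-of-ratios scaling. The smallest p belonged to Tgfbr2 at 0.91 (95% interval 0.43 to 1.38, adjusted p = 0.11, limma), followed by Bmp1 at 0.83 (adjusted p = 0.133), Tgfbr3 at 0.75 (adjusted p = 0.134), Inhbb at 0.70 (adjusted p = 0.146) and Smad1 at 0.43 (adjusted p = 0.152). Read along age, Tgfbr2 fell by 0.71 in WT skin (adjusted p = 0.00163) and differed by 0.20 in KO skin (adjusted p = 0.26). Bmp1 fell by 0.80 in WT skin (adjusted p = 0.00327) and differed by 0.03 in KO skin (adjusted p = 0.891). As the interaction was not called for either gene, the ages are not shown to differ in the genotype effect. Without KO P60 replicate 2, 5 members passed (Bmp1, Id2, Id3, Inhbb and Tgfbr2), and without WT P60 replicate 2, 3 did (Gdf10, Tgfbr2 and Tgfbr3).

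Between P1 and P60 the pathway genes differed far more than between genotypes. Averaged over genotypes, 30 of the 41 genes were lower at P60 and 1, Gdf1, was higher, where 57.3% and 24.3% of all tested genes were. The median log2 difference of the members was -0.60, beside -0.39 over all tested genes, so changes are read against that shift: 26 members lay below it and 15 above. P60 libraries lay wholly below P1 libraries for 23 members and wholly above for 1, where 50.1% and 16.5% of all genes did so. An unadjusted p under 0.05 was found for 31 members, where 82.7% of all genes had one. Under median-of-ratios scaling, where the median of all genes was 0.02, 19 members were lower and 9 higher, beside 39.0% and 40.3% of all genes. All 19 lower members were among the 30, namely Bambi, Bmp2k, Bmp3, Bmp7, Bmp8a, Bmpr1a, Bmpr1b, Bmpr2, Id4, Inhba, Inhbb, Smad1 to Smad7 and Tgfbr1. They were also among the 21 called lower with quantile normalization, which called 9 higher, beside 40.2% and 37.5% of all genes. The 9 higher under median-of-ratios scaling were Bmp4, Bmp6, Chrd, Gdf1, Grem1, Id3, Tgfb2, Tgfbr3 and Tgfbr3l. Those with quantile normalization were Bmp6, Chrd, Gdf1, Gdf11, Grem1, Nog, Tgfb2, Tgfbr3 and Tgfbr3l.

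Inhba had the largest fall on the log2(RPKM + 0.5) scale, whereas in RPKM Bmp8a had the larger ratio of P1 to P60 means, 30.5 beside 12.1 for Inhba. Inhba stood at 2.91 to 4.58 RPKM over the 6 P1 libraries, with a median of 3.64, and at 0.191 to 0.492 RPKM over the 4 P60 libraries, so the ages did not overlap. The log2 difference was -2.38 (SE 0.13, adjusted p = 1.32e-07, limma), 1.99 below the median of all genes. Inhbb fell by 0.78, less than Inhba, and the ratio of Inhbb to Inhba was 1.23 to 2.34 at P1 and 11.4 to 15.5 at P60. The ratio of Fst, the activin-binding antagonist, to Inhba was 5.66 to 7.34 at P1 and 38.1 to 75.6 at P60. Ratios within a library do not depend on its scaling, and for both the ages did not overlap. Both divide by Inhba, which was under 1 RPKM at P60, so they are not independent of its fall. They were not tested.

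Of the 6 tested BMP ligands 3 fell, where 57.3% of all tested genes were called lower. Bmp7 went from 25.1 to 34.6 RPKM at P1 to 8.83 to 15.2 RPKM at P60 (log2 difference -1.42, SE 0.10, adjusted p = 7.38e-07, limma). Bmp3, an antagonist-like member of the family, went from 4.53 to 5.52 RPKM to 1.22 to 1.98 RPKM (log2 difference -1.48, adjusted p = 3.78e-07). Bmp8a went from 1.24 to 2.28 RPKM to 0.00967 to 0.102 RPKM (log2 difference -2.01), which the added 0.5 RPKM understates, and it has a near-identical copy, Bmp8b, to which reads may have been split. Bmp4 did not follow them, at 13.4 to 18.7 RPKM at P1 and 11.7 to 17.4 RPKM at P60, with overlapping ages and a log2 difference of -0.13 (adjusted p = 0.234) that turned to 0.29 under median-of-ratios scaling. Bmp2 and Bmp6 differed by -0.39 and 0.26 and were not called. Bmp4 was called higher under median-of-ratios scaling, and Bmp6 under that scaling and with quantile normalization.

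The make-up of the BMP ligand transcripts differed accordingly. Bmp7 made up 45.2% to 51.1% of the summed RPKM of the 10 BMP ligands at P1 and 28.5% to 35.1% at P60. Bmp4 made up 22.6% to 26.6% at P1 and 32.3% to 42.7% at P60. The ratio of Bmp7 to Bmp4 was 1.80 to 2.26 in the 6 P1 libraries and 0.690 to 0.882 in the 4 P60 libraries, so Bmp7 was the more abundant in every P1 library and Bmp4 in every P60 library. Bmp6 made up 3.49% to 6.87% at P1 and 6.43% to 13.4% at P60. The summed level of the 10 ligands was 55.4 to 70.2 RPKM at P1 and 29.9 to 43.4 RPKM at P60.

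**Figure D4:**
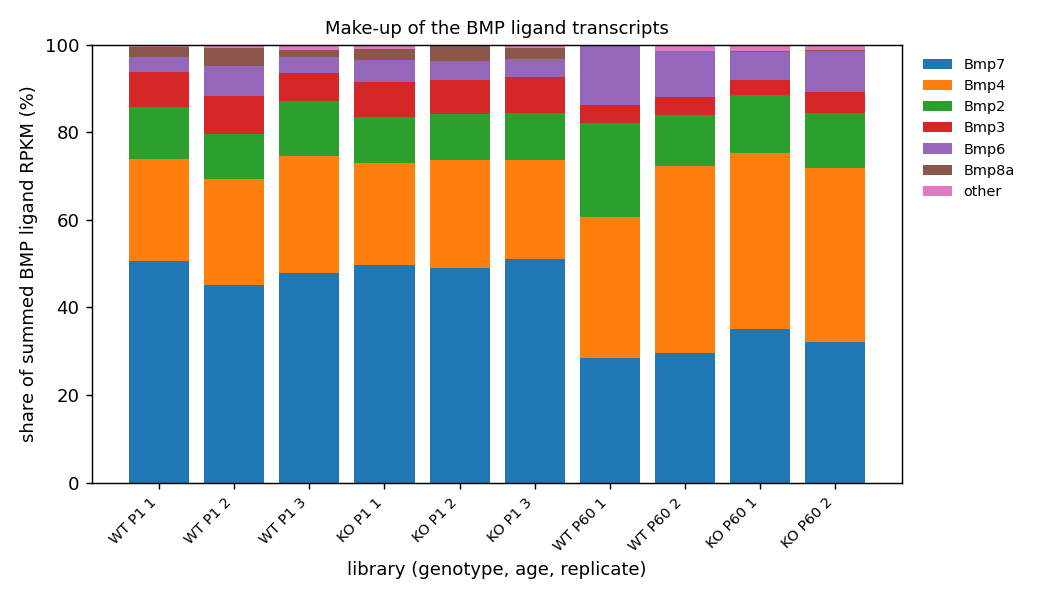
Share of each BMP ligand in the summed RPKM of the 10 BMP ligands, in percent, with one stacked bar per library and the 4 lowest ligands pooled as other. Bmp7 takes 45.2% to 51.1% of each P1 bar and 28.5% to 35.1% of each P60 bar, and Bmp4 is the larger share in all 4 P60 bars.

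Among the receptors of the rule, the type I receptors Bmpr1a, Bmpr1b and Tgfbr1 had larger falls than the type II receptors Bmpr2 and Tgfbr2. Activin receptors outside the rule showed no such order. The type II receptors Acvr2a and Acvr2b differed by -1.59 and -0.17. The type I receptors Acvr1c, Acvr1b and Acvr1 differed by -1.45, -0.89 and -0.45. Acvrl1 and Amhr2, receptors of the same list, were called higher at 0.43 and 1.505. Bmpr1a went from 26.1 to 35.8 RPKM at P1 to 11.6 to 13.1 RPKM at P60 (log2 difference -1.36, SE 0.10, adjusted p = 1.1e-06, limma). Tgfbr1 went from 7.83 to 10.1 RPKM to 2.51 to 4.67 RPKM (log2 difference -1.32, adjusted p = 9.32e-06), and Bmpr1b, the other BMP type I receptor, fell by 1.09. The type II receptor Bmpr2 went from 9.58 to 13.6 RPKM to 5.31 to 7.06 RPKM and fell by 0.85. Tgfbr2 was called lower at -0.26 (adjusted p = 0.0456), but this turned to 0.17 under median-of-ratios scaling and was 0.20 in KO libraries alone. The ratio of Tgfbr2 to Tgfbr1 was 3.47 to 4.77 at P1 and 5.03 to 11.9 at P60, and that of Bmpr1a to Bmpr2 was 2.41 to 2.90 at P1 and 1.65 to 2.25 at P60. Neither these ratios nor the differences between receptors were tested. Tgfbr3 and Tgfbr3l were not called, although both were called higher under median-of-ratios scaling and quantile normalization.

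All 7 tested Smads were lower at P60, also after median-of-ratios scaling and quantile normalization. Of all tested genes 57.3% were called lower without further scaling, 39.0% after median-of-ratios scaling and 40.2% after quantile normalization. Smad5 fell by 1.17 and Smad2 by 1.02, Smad6 by 0.85, Smad1 by 0.83, Smad7 by 0.71, Smad4 by 0.65 and Smad3 by 0.60, with adjusted p from 1.18e-06 to 0.000103 (limma). Smad5 went from 14.1 to 17.1 RPKM at P1 to 6.02 to 7.92 RPKM at P60, and Smad4, the shared partner, from 17.6 to 20.5 RPKM to 10.8 to 13.9 RPKM. The ages did not overlap for either. Both receptor branches and the inhibitory Smads were thus lower together on this scale.

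The Id genes diverged with age. Id4 went from 24.5 to 31.7 RPKM at P1 to 10.1 to 17.1 RPKM at P60 (log2 difference -1.06, SE 0.09, adjusted p = 2.54e-06, limma). Id1 went from 49.7 to 56.5 RPKM to 27.8 to 39.1 RPKM (log2 difference -0.63) and Id2 fell by 0.54, although neither was called under median-of-ratios scaling. Id3 stood at 49.8 to 58.6 RPKM at P1 and 43.1 to 76.2 RPKM at P60, a log2 difference of -0.01 that was 0.42 and called under median-of-ratios scaling. Its share of the summed Id RPKM was 31.7% to 34.4% at P1 and 39.5% to 48.4% at P60, and the ages did not overlap.

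Among the antagonists, Bambi went from 4.22 to 5.94 RPKM at P1 to 0.524 to 1.46 RPKM at P60 (log2 difference -1.86, SE 0.18, adjusted p = 4.77e-06, limma). Fst fell by 0.79, although not called under median-of-ratios scaling. Nog, Grem1 and Chrd were not called, at -0.14, 0.27 and 0.32. Grem1 and Chrd were called higher under median-of-ratios scaling and quantile normalization, and Nog under the latter. Bambi was thus the only antagonist called lower under all 3 scalings. Of the TGF-beta ligands, Tgfb3 fell by 0.55 and Tgfb1 by 0.36, but neither was called lower under median-of-ratios scaling or quantile normalization. Tgfb1 turned to 0.06 under the former. Tgfb2 differed by 0.03 and was called higher under both of these scalings. Gdf1 was called higher, from 0.641 to 1.46 RPKM at P1 to 2.00 to 3.80 RPKM at P60 (log2 difference 1.20, SE 0.20, adjusted p = 0.00032). The Gdf1 transcript shares an exon with Cers1 on the same strand and overlaps Upf1 on the other, so the gene behind these reads is uncertain. Gdf10 and Gdf11 were called lower at -0.40 and -0.25, which turned to 0.09 and 0.28 with quantile normalization, where Gdf11 was called higher. Of the genes that only share the letters, Bmp2k fell by 1.37, Tgfb1i1 by 0.58, Tgfbrap1 by 0.45 and Bmp1 by 0.38, and Bmp1 turned to 0.04 under median-of-ratios scaling.

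**Figure D5:**
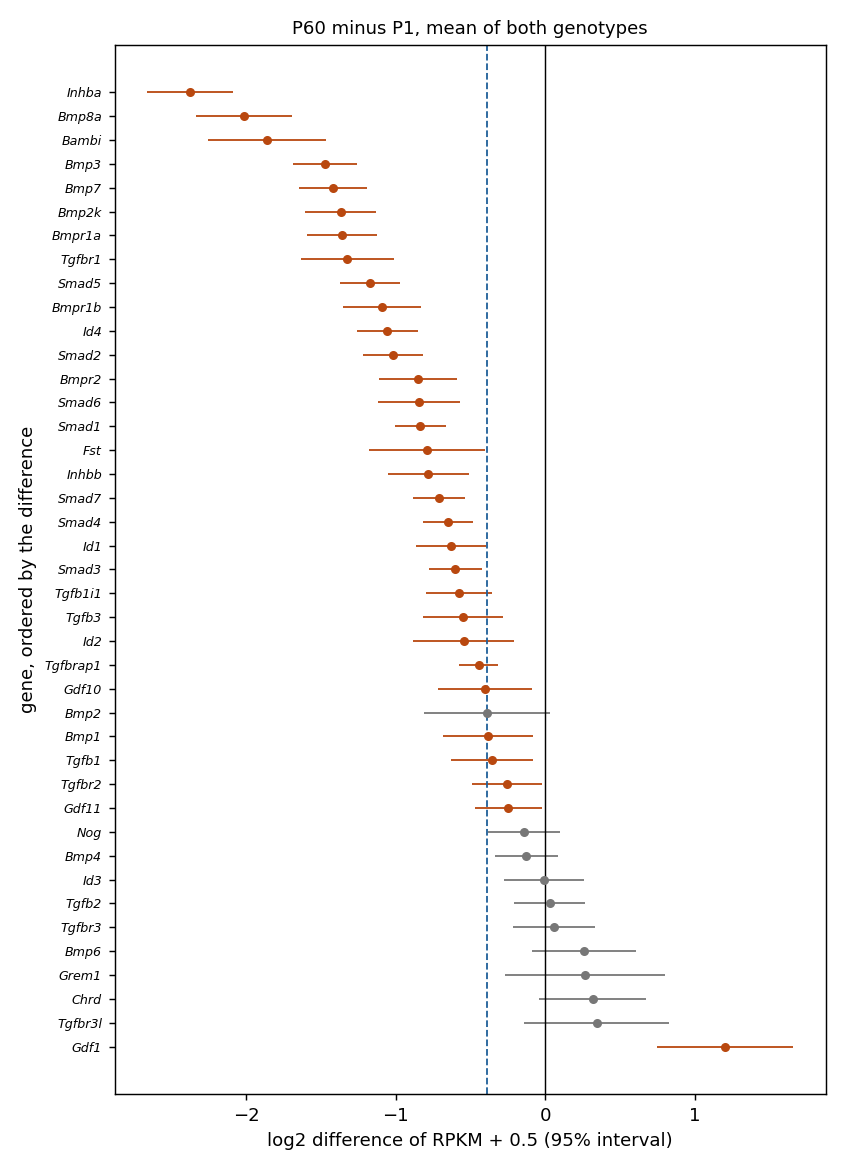
Log2 difference of P60 minus P1, averaged over genotypes, for the 41 genes, from limma on log2(RPKM + 0.5). Points are estimates, horizontal lines 95% intervals, orange marks an adjusted p under 0.05, the solid vertical line is 0 and the dashed line the median of all tested genes. Estimates run from -2.38 (Inhba) to 1.20 (Gdf1), and 26 of the 41 lie left of the dashed line.

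Markers of the growing hair follicle moved with age. Counts of called markers are read against the 57.3% of all tested genes called lower and the 24.3% called higher. Hair matrix and shaft markers (Krt31, Krt33a, Krt35, Krt85, Hoxc13, Msx2 and Lef1) summed to 231.7 to 428.8 RPKM at P1 and 3.75 to 6.98 RPKM at P60, and 7 of 7 were called lower. Inner root sheath markers summed to 1617 to 3154 RPKM at P1 and 0.604 to 1.31 RPKM at P60, and 4 of 4 were called lower. Dermal papilla markers summed to 49.2 to 58.3 RPKM at P1 and 7.86 to 19.2 RPKM at P60, with 5 of 6 called lower. Other lists were called lower in full, with 4 of 4 suprabasal epidermis markers, 4 of 4 endothelial markers, 4 of 4 melanocyte markers and 3 of 3 mast cell markers. Their median log2 differences were -1.47, -0.60, -4.94 and -3.40, beside -0.39 over all tested genes. Skeletal muscle markers went the other way, from 2535 to 5813 RPKM at P1 to 13913 to 36210 RPKM at P60, with 6 of 6 called higher. Of basal epidermis markers 3 of 5 were called higher and 0 lower. T cell and Schwann cell markers each had 3 of 4 higher and 1 lower. Fibroblast and matrix markers had 3 of 6 higher and 2 lower, macrophage and dendritic cell markers 2 of 5 higher and 1 lower. Sebaceous gland markers had 2 of 4 higher and 2 lower, and white adipocyte markers 0 of 5 higher and 3 lower. The part of these tissues in the fall of the pathway genes was not tested. KO P1 replicate 2, the P1 library with Y-linked RNA, lay above every P60 library for 27 of the 30 genes that fell, above their P60 mean for all 30, and within the range of the other 5 P1 libraries for 36 of the 41.

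In the lists of other pathway genes, counts of genes lower at P60 are read against the 57.3% of all tested genes called lower and the 24.3% called higher. Of the intracellular regulators 14 of 17 were lower and 1 higher. The largest fall was in Tgif2, a Smad corepressor, from 6.73 to 9.40 RPKM at P1 to 1.30 to 1.64 RPKM at P60 (log2 difference -2.15, adjusted p = 6.14e-08, limma). Of the latent TGF-beta genes 9 of 16 were lower and 1 higher, and fibrillin-2 (Fbn2), the microfibril protein of developing tissue, went from 11.5 to 15.8 RPKM to 0.0841 to 0.351 RPKM. Of the secreted modulators 9 of 13 were lower and 2 higher, and of the Smad targets 10 of 18 were lower and 3 higher. The medians of the latent TGF-beta genes (-0.44) and of the Smad targets (-0.42) lay near the -0.39 of all tested genes, and those of the intracellular regulators (-0.72) and secreted modulators (-0.76) lay below it. Msx2, a BMP target and also a hair matrix marker above, had a log2 difference of -3.23, whereas Tgfbi, a TGF-beta target, had one of 2.095. The other receptors held 4 lower and 3 higher of 11, and myostatin (Mstn), the muscle-derived ligand, was higher at P60 (log2 difference 2.60, adjusted p = 1.2e-05) beside the muscle markers above.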

How the data were processed

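The authors deposited gene levels as RPKM, a read count divided by gene length and by the number of alignments. Per the submitters' processing notes, reads were aligned to mm10 with TopHat2 2.1.0 and handled in Partek. Per the labels' protocols, cDNA was made with a NEBNext kit and libraries with a NuGen kit. The annotation and whether counting used strand are not given in the sources used here. Numbers of alignments come from a sheet deposited by the authors. The authors' table of comparisons was not used.

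On the log2(RPKM + 0.5) scale, a linear model was fitted in R 4.3.3 with limma 3.58.1 to the 14026 genes that reached 1 RPKM in 2 or more of the 10 libraries, with a mean for each of 4 groups, a variance trend, and Benjamini-Hochberg adjustment within each contrast. Genes were called at an adjusted p under 0.05. Fold changes on this scale understate those of low genes. Contrasts were KO minus WT at each age, their difference, and P60 minus P1. The procedure was run on simulated data in which each gene had the same spread in all groups. That run does not test the P60 calls of genes whose spread differed between groups. The table held 26 symbols turned into dates, which stayed in the fits, unnamed, and 3470 entries at 0 in all libraries.

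Members, lists and the rule for named genes were chosen with earlier results of these data known. The rule named called genes (for age the 12 with the largest change in each direction), those of smallest p where fewer than 5 were called, the 3 most abundant members of each role, and 4 genes of smallest p per list, of which some are left out for length. Members beyond the rule are named to complete a role.

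Same-numbered WT and KO libraries deviated from their group means with correlations of -0.17, 0.24 and -0.26 at P1 and 0.24 at P60 over genes, so the numbers were not taken as pairs. Exon overlaps came from GENCODE M21. Besides Gdf1, several genes overlap exons of the opposite strand, among them Bmp2k, Bmp4, Bmp6, Chrd, Id4, Tgfb2 and Tgfb3, and reads of both strands could not be separated. Alternatives were other pseudocounts, filters, normalizations, weights, no variance trend, a replicate block, fits of 1 age and leaving out each library.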

Additional observations from a re-analysis of the deposited data

How the results depend on the processing

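At P60, 6 members were called higher. Without a filter on low values there was 1, with quantile normalization 0, with median-of-ratios size factors 1 (and 1 lower), with array weights 2, without a variance trend 3, and with only the P60 libraries fitted 0. Of all genes at P60, quantile normalization called 0.135% higher and 0.257% lower, and median-of-ratios size factors 3.38% and 7.7%. With the replicate number as a block 0 members were called at P60, and at P1 and for the difference between ages the block changed no call. The age difference was not fitted with the block. Leaving out 1 library at a time gave 0 to 11. With a pseudocount of 0.1 and with a filter of 5 RPKM there were 8, and all 6 were among them. For the difference between ages, array weights called 1 higher and leaving out 1 library 0 to 5. For age, the filter of 5 RPKM left 0 higher, quantile normalization and median-of-ratios size factors gave 9 each, array weights and the KO libraries alone 3 each, and leaving out 1 library 1 to 3. Median-of-ratios size factors gave 19 lower.

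The log2 difference with age turned sign with median-of-ratios size factors for Tgfb1 (0.063), Bmp1 (0.042), Gdf11 (0.046), Tgfbr2 (0.17), Bmp2 (0.011), Bmp4 (0.29), Nog (0.23) and Id3 (0.42), and with quantile normalization for Gdf10 (0.088), Gdf11 (0.28), Bmp2 (0.057), Bmp4 (0.17), Nog (0.33) and Id3 (0.033). It turned with array weights for Tgfb2 (-0.031) and Id3 (0.009), in KO libraries for Bmp1 (0.031), Tgfbr2 (0.20), Bmp4 (0.11) and Id3 (0.21), and in WT libraries for Nog (0.10), Grem1 (-0.002), Tgfbr3 (-0.32) and Tgfb2 (-0.20). Both normalizations move the median of all genes towards 0, and other causes were not tested. Leaving out 1 library gave ranges with age of -0.079 to 0.613 for Grem1, of -0.107 to 0.223 for Tgfbr3, of -0.087 to 0.147 for Tgfb2 and of -0.165 to 0.148 for Id3, and at P1 of -0.035 to 0.194 for Bmp7. With 2 libraries a group at P60 the median 95% interval of a member reached 0.41 to either side, which limits what could be called.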
